A study of Mus musculus with 12 samples.

Results

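The genes followed here belong to the unfolded protein response and were measured in white adipose tissue of male Ahnak knockout and wild-type mice. They are Hspa5, Sdf2l1, Hyou1, Atf6, Edem1, Xbp1, Ddit3, Atf4, Dnajb9 and Herpud1, 10 of the 19937 genes that could be tested. Each was found as a row of the deposited table annotated with exactly that symbol. All 10 had a single such row, so no choice between rows was needed. The mice were 18 weeks old and fell into 4 groups of 3 arrays. Ahnak knockout mice on a high fat diet (KO HFD) were set against wild-type mice on the same diet (WT HFD), and Ahnak knockout mice on regular chow (KO chow) against wild-type mice on chow (WT chow). Both diets were given for 12 weeks, and the high fat diet held 60% fat, 20% carbohydrate and 20% protein. The labels describe the mutant as an Ahnak knockout without its allele, and they give neither the fat depot nor the number of animals behind an array. The p-values therefore measure the spread between these arrays, which may be partly technical.

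The unfolded protein response adjusts the endoplasmic reticulum (ER) when unfolded proteins accumulate there. It starts from the sensors IRE1 (encoded by Ern1), PERK (Eif2ak3) and ATF6, which lead to the transcription factors XBP1, ATF4 and cleaved ATF6. Their targets include chaperones that fold proteins in the ER, parts of the machinery that removes misfolded proteins from it (ER associated degradation, ERAD) and, through ATF4, the factor CHOP (Ddit3). In adipose tissue this response has been studied mainly in obesity. Much of the pathway is regulated by splicing, cleavage and translation, which an array of mRNA levels does not measure.

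All values are log2 intensities as the authors deposited them. Each change is the log2 mean of one group minus that of the other ± the standard error (SE) from limma, fitted to 12 arrays with 3 in each group. The threshold for passing was an adjusted p under 0.05 by the Benjamini-Hochberg method, taken over 19937 genes. Array medians lay between 5.78 and 5.92, and arrays of a group correlated across genes at r = 0.985 to 0.996, where genes are not independent replicates. Ahnak itself lay at 9.58, 9.40 and 9.45 on the KO HFD arrays, against 10.27, 9.68 and 10.04 on the WT HFD arrays. On chow it lay at 9.31, 9.27 and 9.42 in KO and at 9.94, 10.06 and 10.08 in WT. The KO and WT arrays did not overlap on either diet, and the fall on HFD passed (-0.52 ± 0.13, adjusted p = 0.0207) while the chow difference did not (-0.69 ± 0.13, adjusted p = 0.379). Before adjustment the limma p for Ahnak was 0.00149 on HFD and 0.000167 on chow. The lowest adjusted p of any gene for KO against WT on chow was 0.225. Whether the Ahnak row measures the deleted stretch is not stated in the labels. The adipocyte genes Adipoq (12.45 to 13.33 over the 12 arrays) and Plin1 (12.24 to 13.07) were bright on every array.

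The stretch before the transcription start is shown for 3 members whose changes are described below: Hspa5 and Sdf2l1, which rose on the high fat diet in WT, and Herpud1, which fell. The sequences come from RefSeq (build GRCm38.p6) and hold the 250 bases before the annotated start, written 5′ to 3′ along the gene. Capitals mark the letters of the motifs searched on both strands. The ER stress response element (ERSE) was searched as CCAAT followed by CCACG with 9 bases between them. Its variant ERSE-II was searched as ATTGG followed by CCACG with 1 base between them. The other motifs were the unfolded protein response element core TGACGTGG, the C/EBP-ATF element TGATGCAAT, and CCAAT alone, which lies inside ERSE and, reversed, inside ERSE-II. The Hspa5 stretch lies at chr2:34771840-34772089 on the plus strand, that of Sdf2l1 at chr16:17132384-17132633 on the minus strand and that of Herpud1 at chr8:94386179-94386428 on the plus strand.
Hspa5: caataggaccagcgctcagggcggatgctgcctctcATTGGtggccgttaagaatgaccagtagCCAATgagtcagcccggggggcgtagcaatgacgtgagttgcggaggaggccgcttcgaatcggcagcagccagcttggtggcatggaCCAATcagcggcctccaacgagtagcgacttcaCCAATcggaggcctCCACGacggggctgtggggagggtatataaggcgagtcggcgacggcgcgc
Sdf2l1: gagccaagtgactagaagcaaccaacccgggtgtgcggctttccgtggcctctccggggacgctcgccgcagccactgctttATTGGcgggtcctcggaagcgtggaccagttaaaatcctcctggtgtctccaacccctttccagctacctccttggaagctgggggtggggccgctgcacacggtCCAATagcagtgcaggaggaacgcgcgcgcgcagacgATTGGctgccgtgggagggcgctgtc
Herpud1: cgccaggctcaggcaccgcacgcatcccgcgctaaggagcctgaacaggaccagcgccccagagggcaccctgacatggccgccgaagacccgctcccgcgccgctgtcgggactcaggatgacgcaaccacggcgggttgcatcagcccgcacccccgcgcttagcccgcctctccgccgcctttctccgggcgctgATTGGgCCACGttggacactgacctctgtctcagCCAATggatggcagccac

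An exact ERSE was present before Hspa5, from base -65 to base -47 counted from the start, and in 0.113% of the 32851 promoter stretches in the table. Herpud1 held an exact ERSE-II from -52 to -42, which 0.0304% of all stretches contained. Sdf2l1 held CCAAT at 3 positions and no other of these motifs. Of the 8 members with a stretch in the table (all but Hyou1 and Atf6), 1 held ERSE, 1 held ERSE-II and 7 held CCAAT, which was present in 33.8% of all stretches. None of the 8 held TGACGTGG, present in 0.563% of all stretches, or TGATGCAAT, present in 0.167%. A match is a description of the sequence and not a sign of binding.

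The comparison of KO with WT on the high fat diet asks whether the ER stress genes differ when the loss of Ahnak meets a dietary load. Of the 10 members, 4 fell in KO on HFD, namely Sdf2l1, Hspa5, Hyou1 and Atf6. None rose, and 6 did not pass. Of all genes, 6.85% were called lower and 6.65% higher in this comparison. Because the members were chosen with earlier results of these data known, a count above such a share is not independent evidence, here or below. The members' median change was -0.20, against 0.02 for all genes, and 8 of the 10 changes lay below 0, as did 45.7% of all genes. Arrays of KO and WT did not overlap for 6 of 10 members, against 30.9% of all genes. In whole tissue, fewer cells of a type and less RNA per cell cannot be told apart. The 4 calls also rest on a spread shared by all 12 arrays. With the 6 HFD arrays alone in the fit, none of the 4 passed (adjusted p of 0.0687 to 0.105), at unchanged differences.

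On chow no member passed by limma, and 0% of all genes were called in either direction. At an unadjusted p under 0.05 there were 2 of 10 members, Atf6 and Xbp1, against 1116 of all 19937 genes. The arrays of Atf6 and Xbp1 were also the ones that did not overlap, 2 of 10 members against 11.5% of all genes. The members' median change was -0.09 on chow, against 0.01 for all genes. The chow intervals of the 10 members are given with each gene below.

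**Figure D1:**
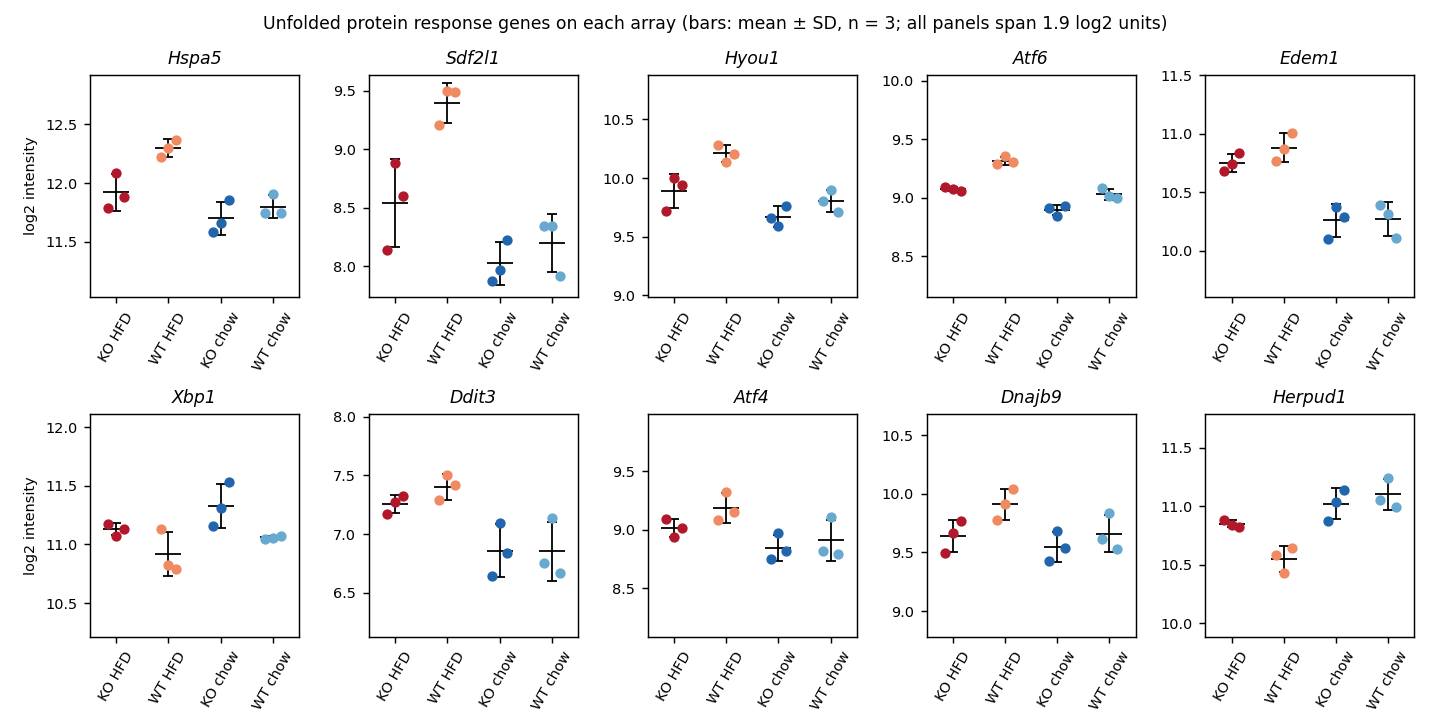
Log2 intensity of each of the 10 genes on the 12 arrays, in the order KO HFD, WT HFD, KO chow and WT chow; points are arrays, bars the mean ± SD of 3 arrays, and every panel spans the same number of log2 units. Sdf2l1 has the widest span, with the WT HFD arrays at 9.20 to 9.50 above all others, and Herpud1 shows the WT HFD arrays (10.43 to 10.64) below all others.

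The chaperones of the ER lumen gave 3 of the 4 calls. Hspa5 encodes BiP, the ER member of the HSP70 family, which binds unfolded proteins and holds the sensors inactive. Its values were 11.79, 12.09 and 11.88 in KO HFD, against 12.22, 12.30 and 12.37 in WT HFD. On chow they were 11.59, 11.66 and 11.86 in KO, against 11.74, 11.91 and 11.74 in WT. Every KO array on HFD lay below every WT array on that diet, while the chow groups overlapped. Hspa5 fell by 0.38 ± 0.10 in KO on HFD (adjusted p = 0.0283), and its chow difference was -0.10 ± 0.10 (95% interval -0.31 to 0.12, adjusted p = 0.982). The call on HFD did not survive leaving out WT HFD replicate 2 or 3 or KO HFD replicate 1 or 3 (changes of -0.37 to -0.31, adjusted p of 0.0812 to 0.114).

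Sdf2l1 encodes a lumenal protein that works with BiP and its DNAJB11 cofactor, and of the members it differed most between KO and WT on HFD. It lay at 8.14, 8.89 and 8.60 on the KO HFD arrays, against 9.20, 9.50 and 9.49 on the WT HFD arrays. The chow values were 7.87, 7.97 and 8.23 in KO, against 8.34, 8.34 and 7.92 in WT. KO HFD replicate 1 lay among the chow arrays, whereas the WT HFD arrays stood clear of all others. The gene fell by 44.6% in KO on HFD (-0.85 ± 0.18 on the log2 scale, adjusted p = 0.014). On chow its difference was -0.18 ± 0.18 (95% interval -0.58 to 0.23, adjusted p = 0.984). The HFD call was just lost without WT HFD replicate 2 (-0.80, adjusted p = 0.0514), WT HFD replicate 3 (-0.81, 0.0572) or KO HFD replicate 1 (-0.65, 0.0521).

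Hyou1, an ER relative of HSP110 that serves BiP as a nucleotide exchange factor, read 9.72, 10.004 and 9.94 in KO HFD, against 10.28, 10.14 and 10.21 in WT HFD. On chow it read 9.66, 9.59 and 9.77 in KO and 9.80, 9.90 and 9.71 in WT. The HFD groups did not overlap and the chow groups did. It fell by 0.32 ± 0.09 in KO on HFD (adjusted p = 0.0372), against a chow difference of -0.13 ± 0.09 (95% interval -0.33 to 0.06, adjusted p = 0.946). This was the least stable of the 4 calls: it was lost without any one of WT chow replicate 1, KO chow replicate 1, the 3 WT HFD arrays and KO HFD replicates 1 and 3 (changes of -0.35 to -0.23, adjusted p of 0.0511 to 0.14).

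Dnajb9, a J protein of the ER that assists BiP and keeps IRE1 inactive, read 9.50, 9.66 and 9.76 in KO HFD, against 9.78, 9.91 and 10.04 in WT HFD. The chow arrays lay at 9.43, 9.68 and 9.54 in KO and at 9.61, 9.83 and 9.53 in WT. On HFD the groups were separated by a narrow margin, and on chow they were mixed. The difference of -0.27 ± 0.11 on HFD did not pass (adjusted p = 0.132), nor did that of -0.11 ± 0.11 on chow (95% interval -0.35 to 0.13, adjusted p = 0.981).

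Among the transcription factors, Atf6 fell and Xbp1 did not pass. Atf6 encodes the membrane-bound sensor that is cut in the Golgi to release an active factor. Its values were 9.09, 9.08 and 9.06 in KO HFD, against 9.29, 9.35 and 9.31 in WT HFD, and 8.91, 8.85 and 8.93 in KO chow, against 9.08, 9.01 and 8.997 in WT chow. Replicates differed little, and KO lay below WT without overlap on both diets. The fall on HFD was small in size (-0.24 ± 0.06, adjusted p = 0.021), and the chow difference was -0.14 ± 0.06 (95% interval -0.26 to -0.01, unadjusted p = 0.0374, adjusted p = 0.889). Without WT HFD replicate 2 or 3 or KO HFD replicate 1 or 3 the HFD call was lost (changes of -0.25 to -0.22, adjusted p of 0.062 to 0.0746).

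Xbp1 encodes the factor whose mRNA is spliced by IRE1, and its single row gives 1 value for both forms. It lay at 11.17, 11.07 and 11.13 in KO HFD, against 11.13, 10.83 and 10.80 in WT HFD. On chow it lay at 11.16, 11.31 and 11.53 in KO, against 11.05, 11.05 and 11.07 in WT. KO chow replicates 2 and 3 were the highest arrays, KO and WT on chow did not overlap, and WT HFD replicate 1 overlapped with KO HFD. Neither difference passed: 0.21 ± 0.11 on HFD (adjusted p = 0.247) and 0.28 ± 0.11 on chow (95% interval 0.04 to 0.51, unadjusted p = 0.0247, adjusted p = 0.818). Without WT HFD replicate 1 the HFD difference passed (0.31, adjusted p = 0.0487).

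The PERK arm is represented by Atf4, a factor made when translation initiation is slowed, and its target Ddit3. Atf4 read 9.10, 8.94 and 9.01 in KO HFD, against 9.08, 9.32 and 9.15 in WT HFD, and 8.75, 8.97 and 8.82 in KO chow, against 8.82, 9.11 and 8.79 in WT chow. Ddit3 read 7.17, 7.28 and 7.32 in KO HFD, against 7.29, 7.51 and 7.42 in WT HFD, and 6.64, 7.10 and 6.84 in KO chow, against 6.75, 7.14 and 6.67 in WT chow. KO and WT arrays overlapped for both genes on both diets. The differences on HFD were -0.17 ± 0.10 for Atf4 (95% interval -0.39 to 0.05, adjusted p = 0.334) and -0.15 ± 0.14 for Ddit3 (95% interval -0.45 to 0.15, adjusted p = 0.563). On chow they were -0.06 ± 0.10 for Atf4 (95% interval -0.29 to 0.16, adjusted p = 0.995) and 0.01 ± 0.14 for Ddit3 (95% interval -0.29 to 0.31, adjusted p = 0.998).

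Neither of the ERAD genes passed for KO against WT. Edem1, which helps extract misfolded glycoproteins, lay at 10.68, 10.74 and 10.83 in KO HFD, against 10.76, 10.87 and 11.003 in WT HFD. On chow its values were 10.10, 10.38 and 10.29 in KO, against 10.39, 10.31 and 10.11 in WT. KO and WT overlapped on both diets, with differences of -0.13 ± 0.10 on HFD (95% interval -0.35 to 0.09, adjusted p = 0.482) and -0.01 ± 0.10 on chow (95% interval -0.23 to 0.21, adjusted p = 0.998). Herpud1 encodes a membrane protein that organises the degradation complex. It read 10.88, 10.84 and 10.82 in KO HFD, against 10.59, 10.43 and 10.64 in WT HFD, and 10.87, 11.04 and 11.13 in KO chow, against 11.05, 11.24 and 10.996 in WT chow. All KO arrays on HFD were above all WT arrays on HFD, yet the difference of 0.29 ± 0.09 narrowly missed the threshold (adjusted p = 0.0549). It passed without WT chow replicate 2 (adjusted p = 0.0466) or KO chow replicate 1 (0.0469), with dim genes left out (0.0375) and with a robust variance trend (0.0429). On chow the difference was -0.08 ± 0.09 (95% interval -0.28 to 0.12, adjusted p = 0.987). Array weights, whose estimation stopped before full convergence, called Herpud1 on HFD (0.20, adjusted p = 0.0187). They also called Dnajb9 (-0.36, 0.00248), Edem1 (-0.23, 0.0236) and Xbp1 (0.32, 0.00296) for KO against WT on HFD.

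**Figure D2:**
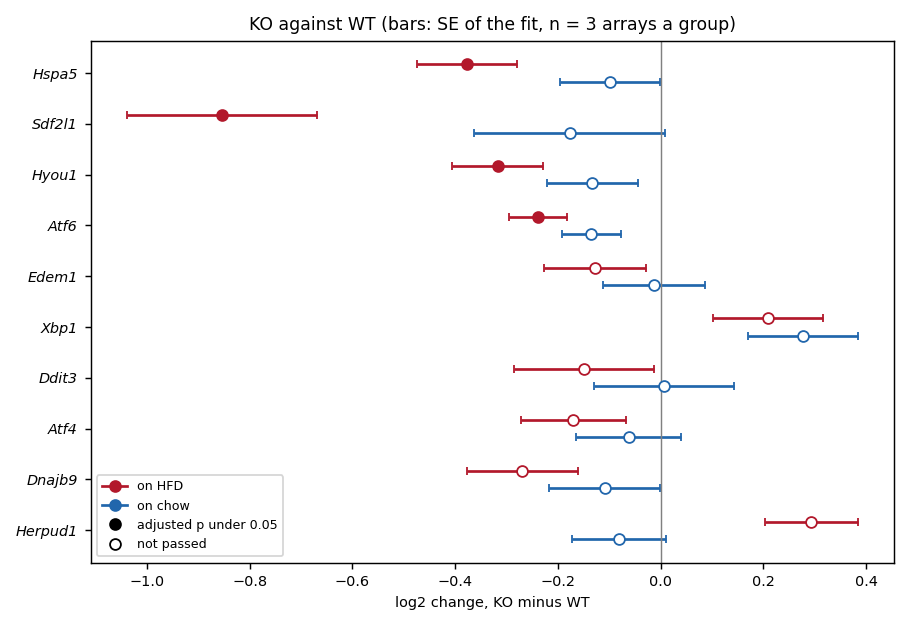
Log2 change of KO against WT for the 10 genes on HFD (red) and on chow (blue), with the SE of the fit as bars and filled symbols where the adjusted p was under 0.05. The 4 filled symbols are Sdf2l1 (-0.85), Hspa5 (-0.38), Hyou1 (-0.32) and Atf6 (-0.24) on HFD, and no chow symbol is filled.

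The comparison of diets asks how the genes respond to the high fat diet within each genotype. On HFD against chow in WT, 6 of 10 members rose, 1 fell and 3 did not pass, whereas 11.8% of all genes were called higher and 12.3% lower. Sdf2l1 rose 2.29-fold (1.19 ± 0.18, adjusted p = 0.00183), Edem1 by 0.61 ± 0.10 (0.00224), Ddit3 by 0.55 ± 0.14 (0.0135), Hspa5 by 0.50 ± 0.10 (0.00489), Hyou1 by 0.40 ± 0.09 (0.00788) and Atf6 by 0.28 ± 0.06 (0.00532). Herpud1 fell by 0.54 ± 0.09 (adjusted p = 0.00243). For each of these 7 genes the WT HFD and WT chow arrays listed above did not overlap. The share of all genes without overlap is not given here for this contrast, so that count has no background to be read against. Atf4 had 0.28 ± 0.10 (adjusted p = 0.0712), Dnajb9 0.25 ± 0.11 (0.12) and Xbp1 -0.14 ± 0.11 (0.399). Atf4 passed with arrays centred on their medians (0.37, adjusted p = 0.0323) and without WT chow replicate 2 (0.38, 0.0247), and array weights called Atf4, Dnajb9 and Xbp1. The members' median change was 0.34, against -0.03 for all genes. Ddit3 was the call that a single array could undo: without WT chow replicate 1 it had 0.50 (adjusted p = 0.0503), and without WT chow replicate 3 it had 0.46 (0.0561). The split of calls over all genes depended on scaling: with each array centred on its median, 3366 of 4893 calls in WT were higher, against 2345 of 4802 as deposited, and each of the 7 members kept its direction and its call.

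In KO mice the same contrast called 1 of 10 members, Edem1, which rose by 0.49 ± 0.10 (adjusted p = 0.022). Of all genes, 2.80% were called higher and 3.54% lower. The members' median change in KO was 0.20, against -0.01 for all genes, and 8 of the 10 changes lay above 0, as did 48.2% of all genes. With each array centred on its median, 1160 of 1692 calls were higher, against 559 of 1264 as deposited. The other changes in KO were 0.52 ± 0.18 for Sdf2l1 (adjusted p = 0.121), 0.40 ± 0.14 for Ddit3 (0.109), 0.22 ± 0.09 for Hyou1 (0.166), 0.22 ± 0.10 for Hspa5 (0.213) and 0.18 ± 0.06 for Atf6 (0.0856). Atf4 had 0.17 ± 0.10 (0.358), Dnajb9 0.09 ± 0.11 (0.67), Herpud1 -0.17 ± 0.09 (0.305) and Xbp1 -0.21 ± 0.11 (0.278). The KO HFD and KO chow arrays did not overlap for 3 of 10 members: Edem1, and Atf6 and Ddit3, which did not pass. The share of all genes without overlap is not given here for this contrast either, so the lack of overlap adds nothing to the tests. The Edem1 call was lost without KO chow replicate 1 or 3 or KO HFD replicate 2 or 3 (changes of 0.42 to 0.51, adjusted p of 0.0617 to 0.105). Sdf2l1 passed without KO HFD replicate 1 (0.72, adjusted p = 0.0355), Ddit3 without KO chow replicate 2 (0.51, 0.0486), and Atf6 with arrays centred on their medians (0.25, 0.0312).

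**Figure D3:**
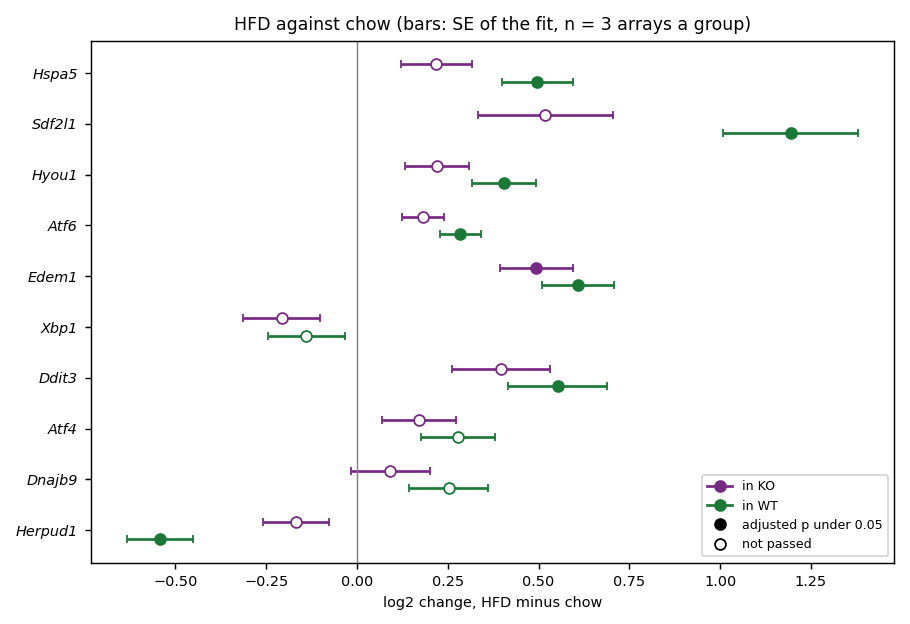
Log2 change of HFD against chow for the 10 genes in KO (purple) and in WT (green), with the SE of the fit as bars and filled symbols where the adjusted p was under 0.05. In WT 7 symbols are filled, from Herpud1 at -0.54 to Sdf2l1 at 1.19, and in KO Edem1 alone is filled at 0.49.

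Whether diet acted differently in KO and in WT was tested with the interaction of genotype and diet, the diet change in KO minus that in WT. No member passed by limma, with 0% of all genes called positive and 0.00502% negative. At an unadjusted p under 0.05 there were 2 of 10 members, against 3496 of all 19937 genes. They were Herpud1 (0.37 ± 0.13, unadjusted p = 0.0138, adjusted p = 0.17) and Sdf2l1 (-0.68 ± 0.26, unadjusted p = 0.025, adjusted p = 0.218). Hspa5 had -0.28 ± 0.14 (adjusted p = 0.333), Hyou1 -0.18 ± 0.13 (0.503) and Atf6 -0.10 ± 0.08 (0.572). The diet change was smaller in size in KO than in WT for 9 of 10 members, as it was for 58.1% of all genes; Xbp1 was the exception. A call in WT without one in KO is therefore not shown to be a difference between the genotypes. The comparison of KO with WT on HFD and that of HFD with chow in WT share the 3 WT HFD arrays, so their values are not independent of each other.

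Wider gene lists place the members in the pathway. They hold 99 measured genes beside the 10 members, in 5 lists, and for KO against WT on HFD 3 of the 99 rose, 13 fell and 83 did not pass, with a median of -0.07 against 0.02 for all genes. On HFD against chow in WT 27 rose, 6 fell and 66 did not pass (median 0.13, against -0.03 for all genes). In KO the same contrast gave 4 that rose and 1 that fell. Of all genes, 6.65% were called higher and 6.85% lower for KO against WT on HFD. For HFD against chow the shares were 11.8% higher and 12.3% lower in WT, and 2.80% and 3.54% in KO. The counts of each list below are to be read against these shares, and several are near them. The lists, like the members, were chosen with earlier results of these data known.

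With the HFD arrays alone in the fit, no gene of these lists passed for KO against WT. Of 27 other ER chaperones and folding enzymes, 6 fell in KO on HFD, none rose and 21 did not pass (median -0.17). Those that fell were the thioredoxin-like Erp29 (-0.40 ± 0.08, adjusted p = 0.00995), the lectin chaperone calreticulin, Calr (-0.33 ± 0.07, 0.0112), the BiP cofactor Dnajb11 (-0.39 ± 0.09, 0.0193), the glycoprotein folding sensor Uggt1 (-0.26 ± 0.07, 0.0346), Creld2 (-0.48 ± 0.14, 0.0461) and the oxidase Ero1b (-0.59 ± 0.17, 0.048). The HSP90 of the ER, Hsp90b1, had -0.18 ± 0.07 (adjusted p = 0.115) and Manf, a secreted ER stress protein, had -0.30 ± 0.10 (0.0619). The disulphide isomerases Pdia6 (-0.19 ± 0.08, 0.157) and Pdia4 (0.05 ± 0.07, 0.749) did not pass either. On HFD against chow in WT, 14 of the 27 rose and none fell (median 0.25). Pdia5, a disulphide isomerase (0.55 ± 0.08, adjusted p = 0.00152), Erp29 (0.52 ± 0.08, 0.0017), Calr (0.43 ± 0.07, 0.00189), Dnajb11 (0.58 ± 0.09, 0.00212), Uggt1 (0.42 ± 0.07, 0.00283) and Hsp90b1 (0.33 ± 0.07, 0.0057) had the smallest p. In KO the prolyl isomerases Fkbp14 (0.61 ± 0.10, adjusted p = 0.0138) and Fkbp7 (0.33 ± 0.08, 0.0349) rose and 25 did not pass; removing KO HFD replicate 1 turned these 2 calls into 4 and removing WT HFD replicate 1 into 3, leaving 1 without WT HFD replicate 3, KO chow replicate 2 or 3 or KO HFD replicate 2, and 0 without KO chow replicate 1 or KO HFD replicate 3. With arrays centred on their medians 9 of the 27 rose in KO, with dim genes left out 5, with a robust variance trend 4, with array weights 7, and with the KO arrays alone or quantile normalization 1. The 6 that fell in KO on HFD became 1 without WT HFD replicate 3, 2 without WT HFD replicate 2 or KO HFD replicate 1, 3 when KO HFD replicate 2 or 3 was dropped, and 0 with the HFD arrays alone in the fit. They became 4 without WT chow replicate 1 or any KO chow array, and 7 with dim genes left out. Without WT HFD replicate 1, 8 fell and 1 rose, and with array weights 16 fell and 1 rose. The 14 that rose in WT remained between 11 and 14 when single arrays were left out.

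The list of sensors, their proteases and related genes held 10 others. Of these, Wfs1, the ER membrane protein wolframin, fell in KO on HFD (-1.12 ± 0.26, adjusted p = 0.0191), and 9 did not pass. No gene of the list passed without WT HFD replicate 3, KO HFD replicate 1 or KO HFD replicate 3. The sensor genes Ern1 (-0.22 ± 0.12, adjusted p = 0.308), Eif2ak3 (0.01 ± 0.09, 0.954) and Atf6b (-0.02 ± 0.06, 0.879) were among the 9. On HFD against chow in WT 4 rose: Creb3 (0.46 ± 0.07, adjusted p = 0.00218) and Creb3l1 (1.11 ± 0.18, 0.00221), which encode ER-bound factors related to ATF6, Wfs1 (1.17 ± 0.26, 0.00847) and Eif2ak3 (0.26 ± 0.09, 0.0452). Creb3 also rose in KO (0.42 ± 0.07, adjusted p = 0.0164). In KO no gene of the list passed once KO chow replicate 1, KO HFD replicate 2 or KO HFD replicate 3 was removed, 2 rose once WT chow replicate 3 or WT HFD replicate 1 or 3 was, and 3 rose with arrays centred on their medians.

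Of the 21 other ERAD genes none was called lower in KO on HFD and 2 rose, Derl1, a channel component (0.60 ± 0.09, adjusted p = 0.00454), and Fam8a1 (0.32 ± 0.08, 0.0282), and 19 did not pass (median 0.04). On HFD against chow in WT 4 rose and Derl1 fell (-0.41 ± 0.09, adjusted p = 0.00635). Those that rose were Sel1l, the scaffold of the ubiquitin ligase complex (0.33 ± 0.06, 0.00326), Faf2 (0.33 ± 0.06, 0.00344), the mannosidase-like Edem3 (0.26 ± 0.08, 0.0324) and Man1b1 (0.18 ± 0.06, 0.0426). Without WT HFD replicate 2 or 3 or any KO HFD array, 1 of the 21 was called higher in KO on HFD, and without WT HFD replicate 1 another 2 were called lower. The 4 that rose in WT became 2 without any one of the WT chow arrays or without WT HFD replicate 2. None of the 21 passed for HFD against chow in KO as deposited, but 4 rose with arrays centred on their medians or with array weights, 3 with dim genes left out, 2 with a robust variance trend, and 1 with rows averaged per gene or without WT chow replicate 2. In WT, centring gave 7 that rose and 1 that fell.

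Of 16 genes for entry into the ER and removal of signal peptides, Sec11c, a signal peptidase subunit (-0.86 ± 0.17, adjusted p = 0.0102), and Spcs3 of the same complex (-0.44 ± 0.12, 0.0358) fell in KO on HFD and 14 did not pass; 1 of the 16 passed without WT HFD replicate 2 or 3 or KO HFD replicate 1 or 3. In WT, Sec11c (0.89 ± 0.17, adjusted p = 0.00409) and Spcs3 (0.50 ± 0.12, 0.0127) rose and the translocation factor Sec62 had the only lower call (-0.22 ± 0.07, 0.0475) on HFD. No gene of the list was called lower in WT in 9 of the 12 fits that left out an array (all but those without KO chow replicate 1 or 3 or WT HFD replicate 1) or with the WT arrays alone, and with arrays centred on their medians 6 rose and 0 fell. Of the 25 other genes of the ATF4 and PERK branch, 4 fell in KO on HFD: Aldh18a1, an enzyme of proline synthesis (-0.81 ± 0.10, adjusted p = 0.0039), the stress factor Atf3 (-2.84 ± 0.45, 0.00593), Mthfd2 of mitochondrial folate metabolism (-0.94 ± 0.17, 0.00756) and the cystine transporter Slc7a11 (-0.43 ± 0.13, 0.0441). Asns, the asparagine synthetase, rose (0.74 ± 0.17, 0.017). The count that rose was 0 without WT HFD replicate 2 or 3 or KO HFD replicate 1. It was 2 once KO HFD replicate 2 was dropped, and 3 once WT HFD replicate 1 was. On HFD against chow in WT 3 of the 25 rose and 4 fell as deposited, whereas 8 rose and 2 fell with arrays centred on their medians. Aldh18a1 (0.82 ± 0.10, adjusted p = 0.000815), Atf3 (3.06 ± 0.45, 0.00151) and the lipoprotein receptor Vldlr (0.53 ± 0.11, 0.00689) rose, while Asns (-1.11 ± 0.17, 0.00164), Ddit4 (-1.33 ± 0.24, 0.00337) and Sesn2 (-0.48 ± 0.14, 0.0301) were among those that fell. Without WT HFD replicate 1, 7 rose, and without WT chow replicate 3 or WT HFD replicate 2, 2 fell. In KO the amino acid transporter subunits Slc3a2 (0.39 ± 0.09, adjusted p = 0.0321) and Slc7a5 (-0.94 ± 0.23, 0.0391) were called, the first higher and the second lower. Neither direction had a call with the KO arrays alone or once KO chow replicate 1, WT HFD replicate 3, KO HFD replicate 2 or KO HFD replicate 3 was removed. The higher call was lost without KO HFD replicate 1, and the lower one without WT chow replicate 1 or KO chow replicate 3.

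On chow no gene of the 5 lists passed for KO against WT. The smallest p in each list belonged to Ddit4 (-1.28 ± 0.24, adjusted p = 0.379), the chaperone cofactor Dnajc1 (-0.19 ± 0.07, 0.818), the translocon subunit Sec61b (-0.28 ± 0.13, 0.892), Creb3l3 (0.13 ± 0.08, 0.929) and Faf2 (0.09 ± 0.06, 0.95), leaving the members aside. The second in each list was Slc3a2 (-0.33 ± 0.09, adjusted p = 0.68), Fkbp14 (-0.20 ± 0.10, 0.898), Sec63 (-0.12 ± 0.06, 0.898), Creb3 (-0.12 ± 0.07, 0.929) and Ube2g2 (-0.12 ± 0.09, 0.96). No gene of the lists passed for the interaction as deposited. Once WT HFD replicate 1 was removed there were interaction calls in all 5 lists: 1 in the list of sensors and related genes, 1 positive and 1 negative among chaperones, 2 in ERAD, 1 in translocation, and 3 positive and 3 negative in the ATF4 and PERK branch. Array weights gave calls in all 5 as well. Aldh18a1 (-0.72 ± 0.14, adjusted p = 0.0738), Sesn2 (0.86 ± 0.20, 0.09), Derl1 (0.49 ± 0.12, 0.107), Calr (-0.32 ± 0.09, 0.131) and Sec11c (-0.82 ± 0.24, 0.126) came closest, followed by Wfs1 (-1.07 ± 0.37, 0.173), Fam8a1 (0.30 ± 0.12, 0.229), Fkbp14 (0.43 ± 0.14, 0.168), Sec61b (0.52 ± 0.18, 0.18) and Creb3l3 (-0.28 ± 0.11, 0.234).

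**Figure D4:**
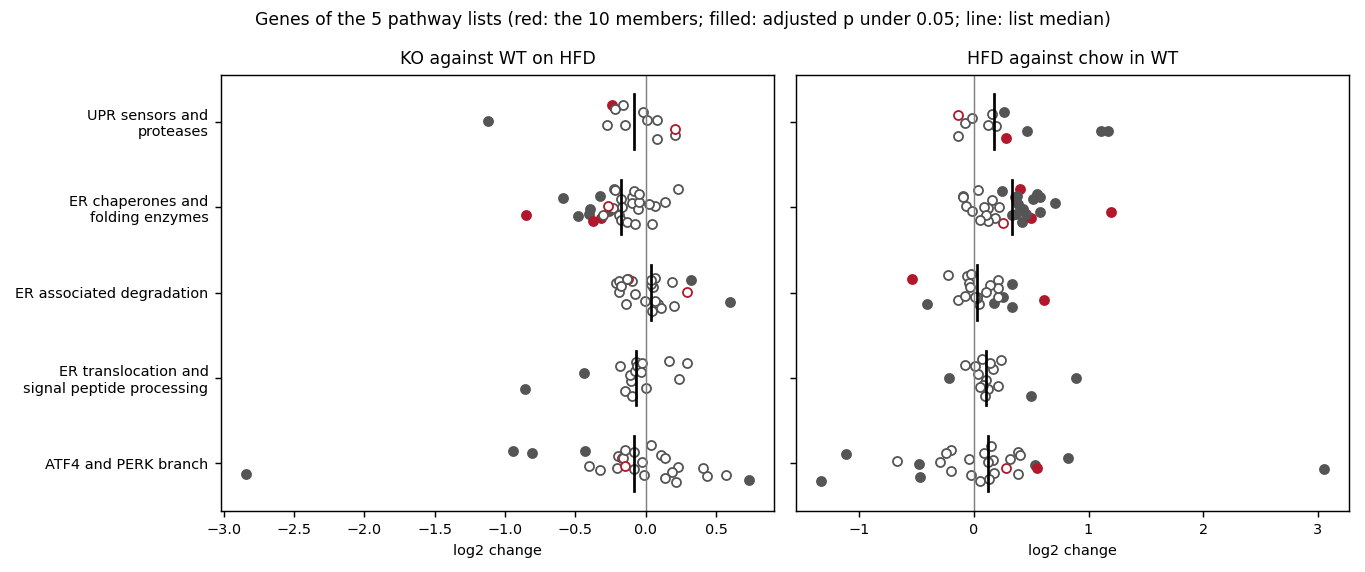
Log2 change of every measured gene of the 5 pathway lists for KO against WT on HFD (left) and HFD against chow in WT (right); red points are the 10 members, filled points had an adjusted p under 0.05, and black lines are list medians. The filled chaperone points lie left of 0 in the left panel and right of 0 in the right panel, and the ATF4 and PERK branch has filled points on both sides in both.

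Cell type markers moved in the same comparisons. For KO against WT on HFD, 11 of 14 macrophage markers fell and the other 3 missed the threshold, and 12 rose on HFD against chow in WT. Their mean log2 level was 9.37, 9.32 and 9.50 on KO HFD replicates 1, 2 and 3, against 10.30, 11.66 and 11.20 on WT HFD replicates 1, 2 and 3, and 8.92 to 9.54 on the chow arrays. Cd68 lay at 10.20 to 10.33 in KO HFD, against 11.26 to 12.83 in WT HFD. Of 11 adipocyte markers 6 rose, 1 fell and 4 did not pass for KO against WT on HFD, with a mean level of 12.31 to 12.38 in KO HFD, against 11.62 to 12.21 in WT HFD. Among the WT HFD arrays replicate 1 had the lowest macrophage level. It also had the lowest value of 7 members (Hspa5, Sdf2l1, Atf6, Edem1, Ddit3, Atf4 and Dnajb9), the highest value of Hyou1 and Xbp1, and the middle value of Herpud1. In the other groups the macrophage means spanned less: 9.32 to 9.50 in KO HFD, 8.92 to 9.21 in KO chow and 9.145 to 9.54 in WT chow. The order of arrays within a group was not tested. KO chow replicate 1 had the highest macrophage level of its group (9.21) and the lowest Hspa5 and Sdf2l1. WT chow replicate 2 had the lowest macrophage level (9.145) and the highest Hspa5. In KO HFD, replicate 2 had the lowest macrophage level and replicate 1 the lowest Hspa5 and Sdf2l1. Of 11 plasma cell and B cell markers, a cell type that makes much ER protein, 2 fell in KO on HFD, Sdc1 (-1.39 ± 0.30, adjusted p = 0.0137) and Cd79b (-0.43 ± 0.10, 0.0152), while Jchain (-0.12 ± 0.42, adjusted p = 0.903), Ighm (-0.07 ± 0.11, 0.748) and Mzb1 (-0.12 ± 0.11, 0.559) did not pass. In WT, for HFD against chow, Sdc1 (1.27 ± 0.30, adjusted p = 0.0107), Prdm1 (0.78 ± 0.22, 0.0255) and Fkbp11 (0.43 ± 0.12, 0.0271) rose and Mzb1 (-0.43 ± 0.11, 0.018) fell. The part of these cell types in the members' changes was not tested.

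**Figure D5:**
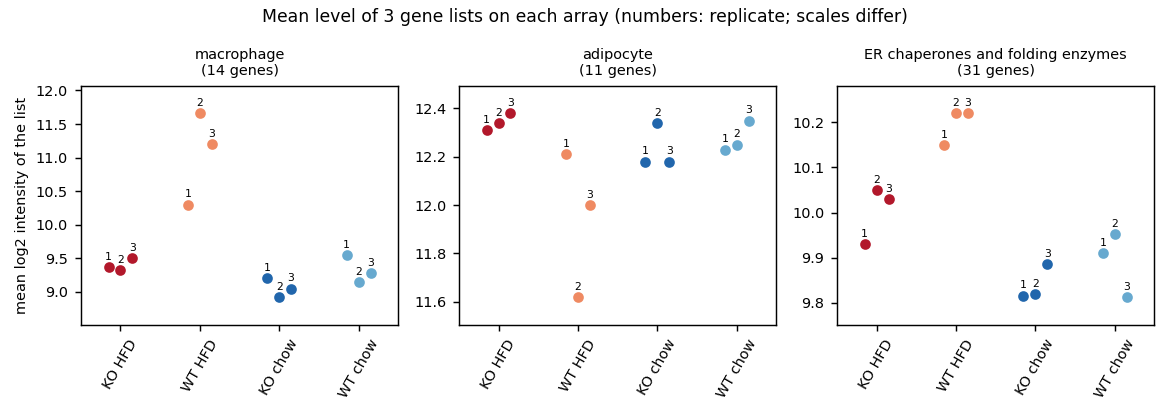
Mean log2 intensity of the macrophage markers, the adipocyte markers and the ER chaperone list on each array, by group, with replicate numbers beside the points; the vertical scales differ. On WT HFD the macrophage mean ranges from 10.30 to 11.66 over the 3 arrays and the chaperone mean from 10.15 to 10.22, and replicate 1 is the lowest array for both. In each of the other groups the macrophage mean spans less, and the lowest array differs between the macrophage and the chaperone list.

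The genes whose profile over the 12 arrays was most like that of Hspa5 were found by the mean absolute difference of log2 values after each gene had been centred on its own mean. Manf came first (0.06), then Elovl1, a fatty acid elongase (0.06), Magt1, a subunit of an oligosaccharyltransferase (0.07), the kinase Map4k4 (0.07) and Erp29 (0.07), where the median over 17794 candidate genes was 0.25. For Sdf2l1 the closest were the tubulin Tubb2a (0.05), Tmeff2 (0.12), Lhfpl2 (0.15), the septin Septin11 (0.15) and Dtx4 (0.15), against a median of 0.51. Of these 10 genes, Manf and Erp29 belong to the chaperone list. Hspa5 itself spanned 0.78 log2 units over the 12 arrays and Sdf2l1 1.63.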

How the data were processed

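Biotin-labelled RNA from white adipose tissue was read on 12 Affymetrix whole-transcript arrays, 1 per sample. Per the submitters' processing notes the tool affy was used; not given in the sources used here are its version and how arrays were background corrected, summarized and normalized. Log2 values were deposited by the authors for 34760 rows without detection calls, so levels near background cannot be marked; the base was inferred from the values (2.09 to 14.2). Rows were named through the platform annotation: 21640 rows have 1 symbol, 1321 have several and 11799 are unnamed here. Where several rows shared a gene (954 genes), that of highest mean stood for it, which left 19937 genes.

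Groups follow the sample titles. Group means were fitted with limma 3.58.1 (R 4.3.3) over the 12 arrays (8 residual degrees of freedom, eBayes, two-sided tests, Benjamini-Hochberg over 19937 genes), without a filter on dim rows. The fit was tested on simulated data. Named genes are the 10 members, Ahnak, a few fixed sensors, chaperones and cell type markers, and up to 6 genes per list and comparison that passed, by smallest p (the first 2 where none passed). The members and lists were chosen with earlier results of these data known. Motifs were matched exactly to RefSeq promoter sequences. The alternatives were 8 other settings and each of the 12 arrays left out in turn. Of 114 listed pathway genes, 109 were measured.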

Additional observations from a re-analysis of the deposited data

How the results depend on the processing

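When the fit held just the groups compared, KO against WT on HFD gave 4 genes and 0 members in place of 2691 and 4, and HFD against chow in KO gave 585 genes in place of 1264. With array weights, whose estimation stopped before full convergence, the counts were 7648 genes and 8 members for KO against WT on HFD, 2137 genes for diet in KO, 9985 genes for diet in WT, and 2819 genes and 1 member (Sdf2l1) for the interaction. Dim genes left out gave 75 interaction genes in place of 1. Centring on medians gave 2 members for diet in KO in place of 1. The replicate block gave 740 genes for diet in KO and 0 for the interaction, and Hyou1 missed the threshold for KO against WT on HFD (-0.32, adjusted p = 0.0662); it changed no other member's call. Same-numbered arrays deviated from their group means together at r = -0.408 to 0.379, over 0.1 in 4 of 18 pairs. Arrays with different numbers were not correlated for reference, so these values cannot decide whether a number marks a shared batch or pairing.

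Leaving out single arrays gave 904 to 3930 genes and 0 to 5 members for KO against WT on HFD, with 0 members once WT HFD replicate 2 or 3 or KO HFD replicate 1 was removed, and 1 once KO HFD replicate 3 was. It gave 0 to 1 gene and 0 members for KO against WT on chow, 62 to 1509 genes and 0 to 2 members for diet in KO, 3072 to 5285 genes and 6 to 8 members for diet in WT, and 0 to 2060 genes and 0 members for the interaction. Of 990 recomputed member changes 943 kept their side of the threshold, 29 lost a call, 18 gained one and 0 reversed a called direction; 10 changes that were not called changed sign. The cause of these shifts was not tested. With 3 arrays a group, precision is set by the number of arrays.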
